A study of Sus scrofa with 6 samples.

Results

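The nuclear genes for the subunits and assembly factors of the mitochondrial respiratory chain were followed in pig endometrial epithelial cells cultured with or without boar seminal exosomes. Members were chosen by gene symbol alone: the NDUF genes (complex I), SDHA to SDHD and the SDHAF genes (complex II), the UQCR genes (complex III), COX4 to COX8 with COX10 to COX19 (complex IV) and the ATP5 genes (complex V). The rule found 75 of the 10915 genes with values, of which 37 belong to complex I, 5 to complex II, 4 to complex III, 17 to complex IV and 12 to complex V. Of the 75, 59 encode subunits or carry a subunit's name and 16 are assembly factors (NDUFAF, SDHAF, and COX10 and COX15 to COX19). No measured value entered the rule. NDUFA4 stayed with complex I by its name, although the protein is now placed in complex IV. The names of 2 further members are looser, since NDUFAB1 is also the mitochondrial acyl carrier protein and ATP5S encodes a coupling factor.

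Both groups were primary epithelial cells from pig uteri collected at a slaughterhouse, grown to passage 3 in serum-containing medium on collagen, with no genetic change. The exosome group received 10 µg per well of exosomes precipitated from the sperm-rich fraction of boar seminal fluid, for 48 h, and the control group received none. Each group has 3 poly(A)-selected RNA libraries, sequenced to ask how the exosomes alter transcript levels. Whether libraries within a group represent different uteri or culture wells is not given in the labels. The p-values therefore rest on the spread among 3 libraries a group, and that spread may be technical.

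The respiratory chain sits in the inner mitochondrial membrane. Complexes I and II pass electrons from NADH and succinate to ubiquinone, complex III passes them on to cytochrome c, and complex IV reduces oxygen. Complexes I, III and IV pump protons, and complex V uses the gradient to make ATP. Complex II is built from nuclear genes alone, whereas the other complexes also need subunits encoded by the mitochondrial genome, and assembly factors help to join the parts and insert the metal centres without staying in the finished enzyme.

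Values are FPKM, fragments scaled to transcript length and to the fragments mapped in the library, so levels can be set against each other per unit of length. Depth is unknown, since counts were not used here. FPKM summed over all genes lay between 721273 and 732922 in the control libraries and between 690258 and 711250 in the exosome libraries. The epithelial keratins KRT19 and KRT8 were abundant, at 3193 ± 88.8 and 3037 ± 48.0 FPKM (SD, n = 3) in the controls. With exosomes they were at 2925 ± 221 and 2800 ± 118 FPKM. Of 10 epithelial marker symbols 7 had a row, and CDH1 and KRT7 were among those without one. The 7 summed to 9203 to 9532 FPKM in the controls and 8133 to 8941 FPKM in the exosome libraries, with 6 of 7 lower, 4 of them without overlap (ELF3, CLDN4, MUC1 and KRT8) and 0 passing by limma (4 at an unadjusted p under 0.05). Over all genes 10.4% were lower without overlap and 7.50% were lower at an unadjusted p under 0.05 by limma. Stromal markers were present too, with 5 of 10 symbols found, a summed level of 2788 to 3042 FPKM in the controls and 2274 to 2494 FPKM in the exosome libraries. Most of that sum was CD90, a surface protein of fibroblasts and other cells. All 5 stromal genes were lower with exosomes, 1 of them without overlap, and 0 passed by limma (1 at an unadjusted p under 0.05). That 1 was CD90, at 2328 ± 93.7 against 1849 ± 69.4 FPKM (limma adjusted p = 0.134). The collagen COL1A1 varied widely within groups, at 2.48, 30.0 and 14.7 FPKM in the controls and 20.4, 6.27 and 0.887 FPKM with exosomes. COL3A1, at a lower level, also varied widely within groups, while VIM and COL1A2 varied less. TAGLN was the only smooth muscle marker with a row, at 132.8 ± 7.14 FPKM in the controls and 103.7 ± 32.3 FPKM with exosomes, and the endothelial KDR and the leukocyte markers CD68 and CD14 were each under 10 FPKM. KDR was lower without overlap, at 1.58 ± 0.354 against 1.07 ± 0.0983 FPKM (limma adjusted p = 0.373). None of 8 sperm markers had a row. The part of these marker differences in the results was not tested, and in bulk RNA fewer cells of a type and less RNA per cell cannot be told apart.

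Respiratory chain genes were among the most abundant transcripts of these cells. Their median level, as the mean of all 6 libraries, was 107.8 FPKM, against 15.0 FPKM for all genes tested. Of the 75, 62 lay above that overall median and 40 lay in the top 10% of all genes. Subunits and assembly factors stood apart in level, with medians of 135.2 and 15.3 FPKM. Only 1 assembly factor reached 100 FPKM, COX17, the copper chaperone that supplies complex IV, at 267.5 FPKM.

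Among the complexes, the median subunit level was 298.9 FPKM in complex V, 269.2 in complex IV, 184.2 in complex III, 104.5 in complex I and 91.9 in complex II. The complex II value rests on 2 subunits. There the rule missed SDHD, at 181.7 FPKM. In complex I it missed NDUFA2, NDUFA9 and NDUFA6, at 90.8, 93.9 and 2.04 FPKM. The order of complexes I and II is given only for the rows that the rule found. The 2 highest members of complex V were F1 subunits, ATP5A1 (alpha) at 816.9 FPKM and ATP5B (beta) at 638.2 FPKM. In complex IV the highest were COX7A2 at 511.4 FPKM and COX5A. In complex III they were UQCR10 and UQCRC1, a core subunit, and the Rieske iron-sulphur protein UQCRFS1 was lowest of the 4. NDUFA4, at 594.1 FPKM, and NDUFB7 led complex I.

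**Figure D1:**
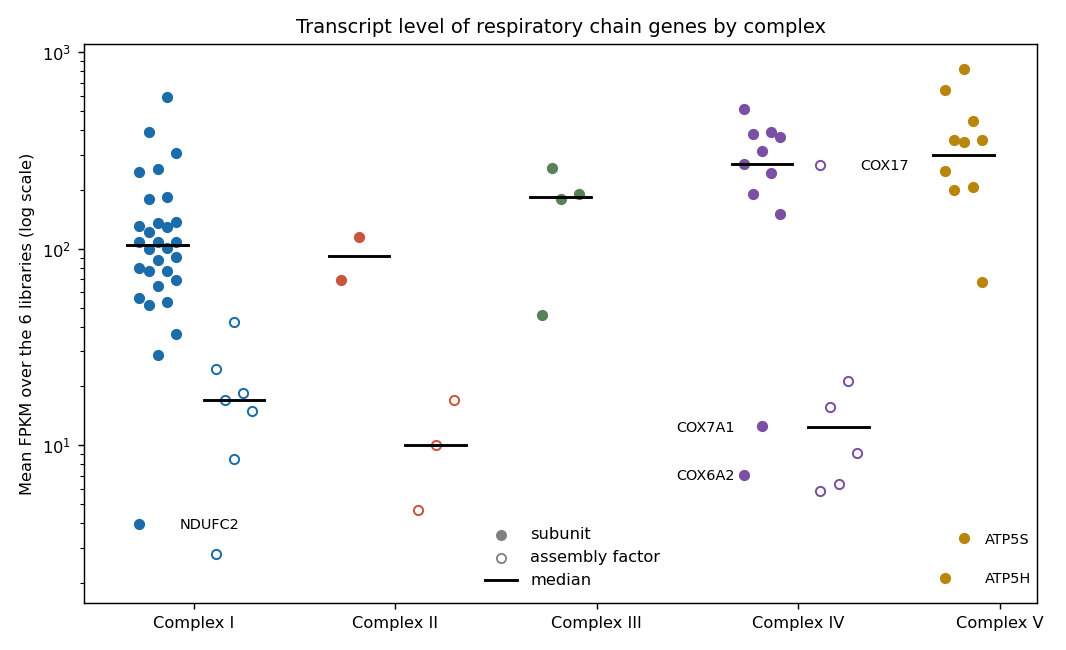
Mean FPKM over the 6 libraries on a log scale for each of the 75 genes, by complex, with subunits as filled points, assembly factors as open points and medians as bars. Median subunit levels run from 91.9 FPKM (complex II, 2 subunits under the rule) to 298.9 FPKM (complex V). Assembly factors lie lower except COX17 (267.5), and the 5 subunits that stand below the rest of their complex are labelled.

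The subunits were not all at the level of their complex. ATP5H, named for the d subunit of the peripheral stalk of complex V, was at 2.12 FPKM, ATP5S at 3.36, NDUFC2 at 4.00 and COX6A2 at 7.08. All 4 of these subunit rows, the only ones under 10 FPKM, carry an identifier that has no symbol in the reference gene table, as do 31 of the 75 members. SDHAF3 and COX19, named below, are also among the 31. These 4 were counted after their values were seen. A low value there is a value of that row and may not be the level of the working gene. At the low end of the assembly factors were NDUFAF6 at 2.78 FPKM, SDHAF3 at 4.67 and COX10, the enzyme that farnesylates haem for complex IV, at 5.82.

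Some paralogous isoforms differed widely in level. COX6A1, the widely expressed form of subunit VIa, exceeded COX6A2, the heart and muscle form, by a ratio of 38.2 ± 6.47 (SD, n = 3) in the controls and 38.7 ± 2.69 in the exosome group. COX7A2 exceeded the muscle form COX7A1 by a ratio of 41.9 ± 8.09 and 42.5 ± 8.92. The identifiers of COX6A1, COX6A2 and COX7A1 have no symbol in the reference gene table. The ratios that use them are ratios of those rows and may not be those of the working genes. The ratio of COX7A2 to COX7A2L, a factor of supercomplex assembly, was 3.42 ± 0.0863 and 3.39 ± 0.0899. ATP5G3 and ATP5G1, which encode the same mature ring subunit c of complex V, stood at a ratio of 0.988 ± 0.0276 and 1.02 ± 0.0592. In each of the 4 pairs the ratios of the exosome and control libraries overlapped.

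None of the 75 genes passed the test between exosome and control libraries. The test was limma on log2(FPKM + 1), with Benjamini-Hochberg adjustment over 10846 genes and a threshold of 0.05. The smallest adjusted p among the members was 0.363 by limma. Over all genes 0.00% passed in either direction. At an unadjusted p under 0.05, 3 members were higher in the exosome group and 2 lower, where 5.06% and 7.50% of all genes were. Groups did not overlap, with every exosome library on one side of every control library, for 3 higher and 5 lower members, against 8.29% and 10.4% of all genes. In either direction that is 8 of 75 members, against 18.7% of all genes. With 3 libraries against 3, an exact permutation test of a single gene cannot go below p = 0.1.

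Differences were also small in size. Exosome minus control differences, given here on the log2(FPKM + 1) scale, which understates the change of low genes, had a median of -0.00054 over the 75 members, with 37 higher and 38 lower. With 1 library left out that median lay between -0.03 (without exosome library 3) and 0.03 (without exosome library 2). Over all genes the median was -0.0023. The median size, sign set aside, was 0.04 for the members and 0.08 for all genes. They ranged from -0.30 for COX19 to 0.28 for NDUFC2, a low row at 3.41, 4.38 and 2.80 FPKM in control libraries 1 to 3 and 4.29, 3.98 and 5.12 FPKM in exosome libraries 1 to 3. The groups of NDUFC2 overlapped (limma adjusted p = 0.454). The 95% intervals of 61 members lay within a 1.25-fold difference either way, which is 81.3%, against 63.9% of all genes. All but COX19 and NDUFC2 had intervals within 1.5-fold, 73 of 75. A 1.25-fold difference was thus outside the unadjusted interval of most members.

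**Figure D2:**
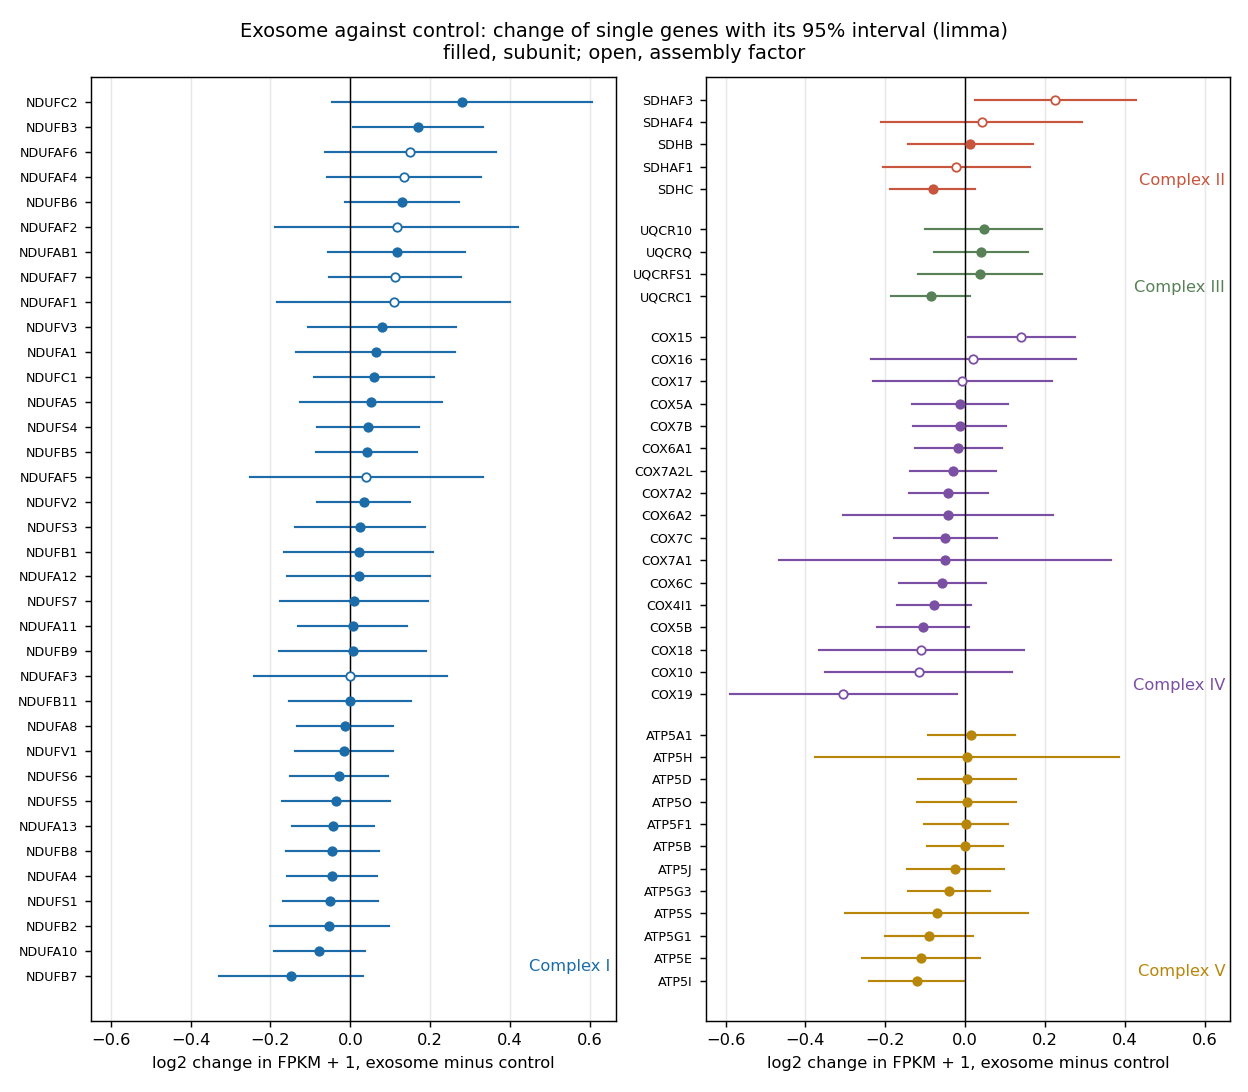
Exosome minus control difference on the log2(FPKM + 1) scale for single genes, with 95% intervals from limma, grouped by complex (n = 3 libraries per group). No gene passes the adjusted threshold; the points run from -0.30 (COX19) to 0.28 (NDUFC2) and most intervals cross 0.

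Complex I takes electrons from NADH. Its 37 genes had a median difference of 0.02, with 24 higher and 13 lower. Without exosome library 2 that median was 0.09, and it was -0.00079 without exosome library 1, -0.0017 without exosome library 3, 0.0025 without control library 3 and 0.04 without control library 1. Among the subunits of its catalytic core, NDUFS1, NDUFS3, NDUFS7, NDUFV1 and NDUFV2 had differences from -0.05 to 0.03, 3 higher and 2 lower. NDUFS1, the largest subunit and a carrier of iron-sulphur clusters, was at 54.4, 56.3 and 52.7 FPKM in control libraries 1 to 3 and at 54.8, 51.4 and 51.6 FPKM in exosome libraries 1 to 3. Exosome libraries 2 and 3 lay below all 3 controls and exosome library 1 lay inside their range. The log2 difference was -0.05 ± 0.052 (SE), with a limma adjusted p of 0.718.

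The accessory subunits of complex I, which surround the core, went in both directions. NDUFA and NDUFB genes each had 5 higher and 4 lower members among 9, with medians of 0.0062 and 0.0055. The 9 NDUFA genes were taken by symbol. They include NDUFAB1 (0.12) and NDUFA4 (-0.05), the latter now placed in complex IV. NDUFB7, an abundant member of the membrane arm, was at 431.8, 422.2 and 378.2 FPKM in the controls and 370.3, 337.9 and 404.5 FPKM with exosomes, so the groups overlapped (-0.15, limma adjusted p = 0.468). NDUFB3, another membrane arm subunit and a gene singled out with its values in view, was at 49.2, 50.7 and 45.5 FPKM in the controls. Its exosome libraries were at 58.1, 50.1 and 56.0 FPKM. Exosome libraries 1 and 3 stood above all controls and library 2 stood inside their range, and the log2 difference was 0.17 ± 0.070 (SE; limma adjusted p = 0.384).

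All 7 complex I assembly factors under the rule, the NDUFAF genes, had positive differences, from 0.00038 for NDUFAF3 to 0.15 for NDUFAF6. Their median was 0.11 (0.19 without exosome library 2), with 0 passing. They stayed at 7 of 7 under each of 3 other scalings of the libraries, but were 5 of 7 without control library 3 or without exosome library 3. Complex I assembly factors outside the rule went in both directions. ACAD9, FOXRED1 and TMEM126B were higher, by 0.06, 0.09 and 0.04. ECSIT, NUBPL and TMEM186 were lower, at -0.02, -0.02 and -0.10. NDUFAF6, an early-acting assembly factor, was at 2.69, 2.68 and 2.38 FPKM in the controls and 3.31, 2.77 and 2.86 FPKM with exosomes. Its groups did not overlap, although exosome library 2 exceeded the highest control by less than 0.1 FPKM. The log2 difference was 0.15 ± 0.092 (SE), with a limma adjusted p of 0.537. NDUFAF4, chosen for mention with its values in view, was at 20.9, 25.5 and 23.6 FPKM against 26.5, 23.8 and 26.7 FPKM, with overlapping groups and a limma adjusted p of 0.538.

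Complex II oxidises succinate and belongs to the citric acid cycle as well. Of its 2 subunits with a row under the rule, SDHB, the iron-sulphur subunit, was at 118.2, 112.4 and 110.8 FPKM in the controls and 119.6, 104.1 and 121.7 FPKM with exosomes, a log2 difference of 0.01. SDHC, a membrane anchor, was at 68.9, 72.4 and 72.4 FPKM and then 66.1, 67.9 and 68.0 FPKM. SDHC did not overlap between groups (-0.08 ± 0.046 (SE), limma adjusted p = 0.509). SDHA was not analysed here. SDHAF3, which helps to mature the iron-sulphur subunit, had the smallest p of all 75 members. Its libraries were at 4.33, 4.12 and 4.19 FPKM in the controls and at 5.11, 4.57 and 5.67 FPKM with exosomes, so every exosome library was above every control. The log2 difference was 0.23 ± 0.087 (SE), with a limma p of 0.0327 and an adjusted p of 0.363.

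The positions of these genes were matched by symbol to RefSeq on Sscrofa11.1, the build named in the processing notes, and were found for 62 of the 75. SDHAF3 spans chr9:76699512-76771834, and NDUFAF6 spans chr4:41619480-41655682. SDHC spans chr4:89135410-89169164. NDUFB3 spans chr15:104747835-104759137 and ATP5I chr8:112092-113526. The identifiers of SDHAF3 and NDUFB3 have no symbol in the reference gene table, so their positions rest on the deposited symbol alone.

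Complex III had 4 genes, 3 higher and 1 lower, with a median of 0.04. Without exosome library 3 the median was -0.0047, without exosome library 1 it was 0.02, without control library 3 it was 0.0100, and without exosome library 2 it was 0.08. UQCRC1, a core subunit of the matrix side, was the lower one. It was at 197.5, 198.9 and 190.8 FPKM in the controls and 180.2, 184.9 and 187.8 FPKM with exosomes, with no overlap (-0.09 ± 0.042 (SE), limma adjusted p = 0.442). UQCR10, UQCRQ and UQCRFS1 had differences of 0.05, 0.04 and 0.04, and their groups overlapped.

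**Figure D3:**
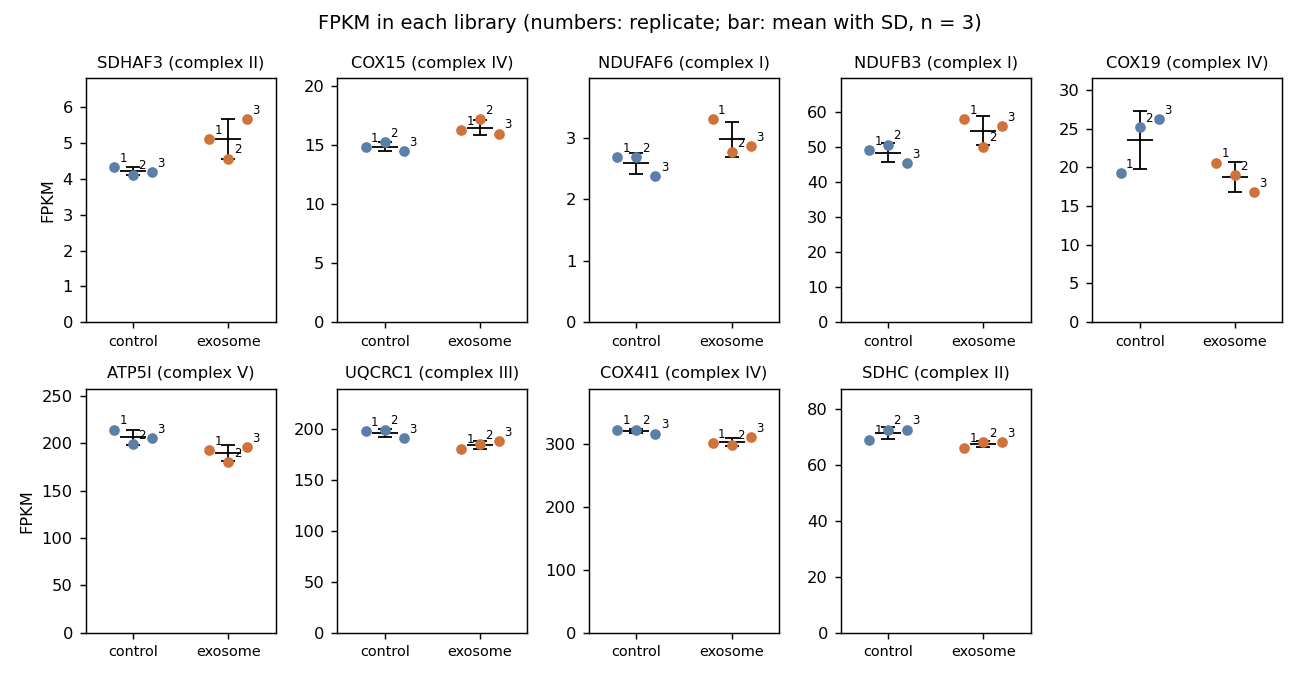
FPKM of single libraries for 9 members, with group means and SD (n = 3 per group): 7 whose groups do not overlap, and NDUFB3 and COX19, whose groups do. SDHAF3, COX15 and NDUFAF6 lie higher in the exosome libraries and ATP5I, UQCRC1, COX4I1 and SDHC lower, each without passing the adjusted test (smallest adjusted p = 0.363).

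Complex IV stood on the lower side, with 15 of its 17 genes lower, a median of -0.04 and 0 passing. Over all genes 5508 of 10846 were lower. All 11 subunits were lower, between -0.01 and -0.11. Of the 11, 9 were at 100 FPKM or more, a level at which 665 of all 1069 genes were lower. The count of lower subunits became 7 of 11 under quantile normalization and under scaling to the sum of genes outside the mitochondrial genome, and it was 11 under median ratio scaling. It was also 7 without exosome library 2 and 8 without control library 3. The median of complex IV was -0.0084 without exosome library 2 and -0.08 without exosome library 3. COX4I1, the regulatory subunit IV, was at 322.8, 322.8 and 316.6 FPKM in the controls and 301.7, 298.9 and 311.1 FPKM with exosomes. Its groups did not overlap (-0.08 ± 0.040 (SE), limma adjusted p = 0.461). COX5B, a zinc-binding subunit, was at 388.6, 379.9 and 377.3 FPKM and then 342.5, 377.3 and 346.2 FPKM, with exosome library 2 at the edge of the control range. COX6C and COX5A had differences of -0.06 and -0.01.

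The assembly factors of complex IV went in both directions. COX15, which makes haem A from the product of COX10, was at 14.8, 15.2 and 14.5 FPKM in the controls and 16.3, 17.2 and 16.0 FPKM with exosomes. All 3 exosome libraries were above all controls (0.14 ± 0.058 (SE), limma adjusted p = 0.382). COX10 itself was at 5.34, 6.59 and 6.35 FPKM against 6.21, 5.08 and 5.34 FPKM, a difference of -0.12 with overlap. COX19, a copper-handling protein of the intermembrane space singled out with its values in view, had the largest difference in size of all members. It was at 19.2, 25.2 and 26.3 FPKM in the controls and 20.6, 19.0 and 16.8 FPKM with exosomes. Control library 1 lay inside the exosome range, and the difference was -0.30 ± 0.12 (SE; limma adjusted p = 0.375). COX17 was at 273.4, 269.5 and 259.0 FPKM and then 309.3, 230.4 and 263.7 FPKM, the exosome libraries lying on both sides of the controls.

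Complex V had 5 higher and 7 lower genes, with a median of -0.01. That median lay between -0.04 (without exosome library 1) and -0.0095 (without control library 1) with 1 library left out, and was past 1.5 times its size also without exosome library 3, control library 2 or control library 3, at -0.028, -0.029 and -0.024. Of the 5 F1 symbols, 4 had a row and ATP5C1 was not analysed here. Alpha and beta were nearly level: ATP5A1 differed by 0.02 and ATP5B by -0.00054. Delta (ATP5D) differed by 0.0047 and epsilon (ATP5E) by -0.11, the latter at 365.7, 369.8 and 348.9 FPKM against 332.3, 310.0 and 364.7 FPKM with overlap. ATP5I, the e subunit found where the enzyme forms dimers, was at 214.5, 199.1 and 205.5 FPKM in the controls and 192.9, 180.4 and 195.9 FPKM with exosomes. Its groups did not overlap (-0.12 ± 0.051 (SE), limma adjusted p = 0.390).

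Summed over all 75 genes, FPKM came to 12075 ± 255 (SD, n = 3) in the controls and 11890 ± 450 with exosomes, or 98.5% of the control mean. By complex the exosome mean was 99.3% of control for complex I, 99.2% for complex II, 100.5% for complex III, 97.1% for complex IV and 98.3% for complex V. Over all genes tested it was 96.5%. The complex IV sums were 3211 ± 17.2 FPKM in the controls and 3119 ± 78.0 FPKM with exosomes. As a share of all FPKM the 75 genes took 1.66% ± 0.0231 and 1.69% ± 0.0718. The complex IV genes took 0.441% ± 0.00228 and 0.444% ± 0.0123.

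The exosome libraries were not alike. Exosome library 2 was the lowest of its group in 56 of 75 members, or 74.7%, against 37.7% of all genes. It was the lowest of all 6 libraries in 37 members, or 49.3%, against 19% of all genes. Relative to the control mean, the median member stood at 0.03, 0.0057 and -0.03 on the log2 scale in control libraries 1 to 3. In exosome libraries 1 to 3 it stood at 0.03, -0.08 and 0.04, while the median of all genes stayed between -0.0055 and 0.0089 in all 6 libraries. Over all members, exosome libraries 1 and 3 thus stood near the top of the control range and library 2 below it. Complexes IV and V differed from that order. The median of exosome library 1 was -0.06 in complex IV, below all 3 controls (-0.02 to 0.02), and that of exosome library 3 was -0.01 in complex V, inside the control range. Library 2 was lowest of its group in 30 of 37 complex I genes, 4 of 5 in complex II, 3 of 4 in complex III, 11 of 17 in complex IV and 8 of 12 in complex V.

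Without exosome library 2, 0 of 75 members passed by limma, with a smallest adjusted p of 0.0780 for NDUFAF1, while 2.74% of 10841 genes passed, 0.858% as higher and 1.88% as lower. At an unadjusted p under 0.05, 9 members were then higher (background 10.2%) and 1 lower (11.8%). The 9 were NDUFAF1, NDUFAF5, NDUFAF7, NDUFB3, NDUFB6, NDUFAB1, NDUFA1, SDHAF3 and UQCR10, and the lower one was COX5B. Of the 9, 7 belong to complex I or its assembly, as do 37 of all 75 members. The difference of SDHAF3 was 0.29 in that fit, that of NDUFB3 0.23 and that of COX5B -0.15. The median member stood at 0.03 and the median of complex I at 0.09. The share of 12% higher members was close to the background. Library 2 was the lowest of its group in 56 of the 75 members, so leaving it out raises the exosome mean of those genes by construction.

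**Figure D4:**
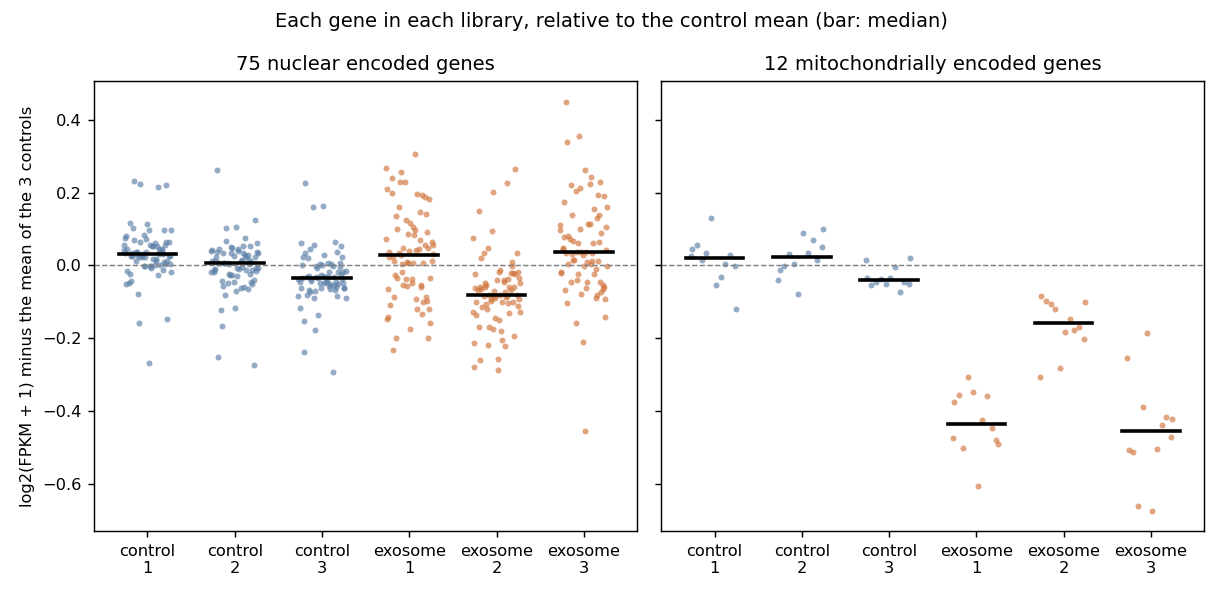
Each gene's log2(FPKM + 1) minus its mean in the 3 controls, in each library, for the 75 nuclear members (left) and the 12 mitochondrially encoded subunit rows (right), with medians as bars. Exosome library 2 has the lowest median for the nuclear genes (-0.08), and the mitochondrially encoded medians lie at -0.43, -0.16 and -0.45 in exosome libraries 1 to 3.

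The partner subunits encoded by the mitochondrial genome differed more in size. All 12 rows found for them were lower with exosomes, with a median of -0.34. COX1 was not among the 12. Of these, 11 did not overlap, where 10.4% of all genes were lower without overlap. By limma 0 passed (smallest adjusted p = 0.170), and 12 of 12 had an unadjusted p under 0.05, where 7.50% of all genes were lower at that level. The 12 share the mitochondrial genome and were read in the same 6 libraries, so they are not 12 independent observations. The 12 rows summed to 46175 ± 973 FPKM (SD, n = 3) in the controls and 36606 ± 3921 FPKM with exosomes, 79.3% of control. For the nuclear members the corresponding figure was 98.5%. The libraries did not move together in the 2 gene sets: exosome library 2 was nearest to the controls for the mitochondrial rows and farthest below them for the nuclear genes. Scaling to the sum of all other genes put the median nuclear member at 0.03 with 49 of 75 higher, and the median of all genes at 0.03 as well.

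Other genes of the pathway were taken from lists outside the naming rule, and 0 passed in each list by limma. Of 14 symbols for other subunits and carriers 11 had a row, with 4 higher and 7 lower. The 2 smallest p-values belonged to MGST3, a microsomal glutathione transferase and not a chain subunit (96.5 ± 1.69 against 78.4 ± 4.68 FPKM, adjusted p = 0.170), and C15orf48, a paralogue of NDUFA4 (5.78 ± 0.701 against 4.34 ± 0.758 FPKM, adjusted p = 0.336). Other assembly factors had 26 tested rows, 13 higher and 13 lower, with TTC19 present in 2 rows. Of these, LRPPRC, which stabilises mitochondrial messenger RNAs, was at 64.7 ± 0.361 against 77.6 ± 6.62 FPKM (adjusted p = 0.251), and PET100, a complex IV factor, at 39.1 ± 1.05 against 34.5 ± 1.03 FPKM (adjusted p = 0.284).

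Of 22 regulators of mitochondrial biogenesis 12 had a row, and 8 of these were higher and 4 lower, with a median of 0.06. The mitochondrial transcription factor TFB2M was at 12.9 ± 0.812 against 15.1 ± 1.47 FPKM, with an adjusted p of 0.384 by limma. Its paralogue TFB1M, which methylates mitochondrial ribosomal RNA, was at 4.77 ± 0.464 against 5.54 ± 0.208 FPKM. The groups of TFB2M overlapped and those of TFB1M did not. TFAM, chosen for mention with its values in view, had the largest difference of the list (0.40, limma adjusted p = 0.418). It was at 40.8, 70.0 and 66.8 FPKM in the controls and 79.3, 72.0 and 77.2 FPKM with exosomes, without overlap. The mitochondrial import list had 18 of 21 found genes higher, with a median of 0.06. HSPA9, the import chaperone of the matrix, was at 235.4 ± 6.73 against 270.2 ± 23.6 FPKM (limma adjusted p = 0.330), and the receptor TOMM20 at 85.2 ± 2.31 against 97.0 ± 8.80 FPKM. Citric acid cycle genes outside complex II had 19 rows for 18 symbols, CS having 2, and 8 rows were higher and 11 lower, among them IDH2 at 175.0 ± 3.59 against 153.1 ± 4.81 FPKM (limma adjusted p = 0.234). The ADP/ATP and phosphate carriers with the VDAC pores had 3 higher and 2 lower, led by VDAC3 at 0.08 and SLC25A5 at 0.04.

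The direction of the differences also went with level. Of 39 members at 100 FPKM or more, 35.9% were higher with exosomes, against 37.8% of all genes at that level. Between 10 and 100 FPKM, 17 of 26 members were higher (65.4%, against 48% of all genes), and under 10 FPKM 6 of 10 were (60%, against 53.8%). Subunits, mostly in the upper band, had a median of -0.01, and assembly factors, mostly below it, had a median of 0.04 with 11 of 16 higher. Without exosome library 2 these medians were 0.01 and 0.11, without exosome library 1 they were -0.02 and 0.0060, and without exosome library 3 they were -0.03 and 0.03. Level and role thus went together in most members, and their parts in this contrast were not tested apart. The band from 10 to 100 FPKM held 17 subunits and 9 assembly factors.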

How the data were processed

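Expression was measured in 6 libraries. The authors deposited 1 table of values taken as FPKM (unit inferred from the tools and the values); per the submitters' processing notes, bcl2fastq 1.8.4, TopHat, Cufflinks and Sscrofa11.1 were used, with versions of TopHat and Cufflinks, annotation and filters not given in the sources used here. One of 10916 rows had no values and 69 genes with a mean below 1 FPKM were left out of tests. Groups came from sample labels. log2(FPKM + 1) was fitted with limma 3.58.1 in R 4.3.3 (two-sided test with 4 residual degrees of freedom and an intensity trend). The fit was checked on simulated data whose planted differences were larger than any member difference here, so that check does not cover small differences. Tables and plots used Python 3.11.15. Named genes were those with the smallest p among members without overlap, the 2 highest and the lowest member of each complex, the catalytic core, paralogous isoforms, and the 2 smallest p of each other list; others are said to be chosen later, and some named items are not reported here. Members and lists were chosen with earlier results of these data known. No sequence was used. Alternatives covered pseudocount, filter, scaling, limma options, the replicate number as a term and left-out libraries.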

Additional observations from a re-analysis of the deposited data

How the results depend on the processing

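In all 22 alternatives 0 members passed, so no member gained or lost a call; in the fit with the replicate block the smallest adjusted p by limma was 0.390 and 0 members were called. Same-numbered libraries deviated together by correlations of 0.16, 0.14 and -0.07, and not every library correlated best with its own number, so the numbers were not taken as pairs. The complex I median was between -0.00173 and 0.0871 with 1 library left out and 0.0912 without library 2 of both groups and -0.0166 without library 3 of both groups, and leaving out libraries put the number of members higher between 20 (without library 3 of both groups) and 47 (without exosome library 2). The complex IV sum was 99.2% of control under quantile normalization and 99.4% when scaled to genes outside the mitochondrial genome (97.1% as deposited).

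Of 41 named members, 21 kept their direction throughout and 20 reversed in at least 1 alternative, all of them with a difference of at most 0.051 in size as deposited. Quantile normalization gave NDUFA4 0.0476, COX5A 0.0226, COX7A2 0.00216, ATP5B 0.0543, ATP5A1 -0.000281, ATP5H -0.00115, ATP5G3 0.00120, COX7A2L 0.00465, NDUFV1 0.0107 and COX17 0.0154. Scaling to genes outside the mitochondrial genome gave COX5A 0.0210, ATP5B 0.0329, COX7A2L 0.00350, COX6A1 0.0160, NDUFV1 0.0170 and COX17 0.0261. Median ratio scaling gave ATP5B 0.00553. With 1 library left out, the lowest and highest values were -0.0279 and 0.0839 for SDHB, -0.00723 and 0.112 for UQCR10, -0.00215 and 0.106 for UQCRFS1, -0.0439 and 0.0271 for COX5A and -0.0229 and 0.0192 for ATP5B. They were -0.0103 and 0.0513 for ATP5A1, -0.132 and 0.116 for ATP5H, -0.131 and 0.0695 for COX6A2, -0.245 and 0.0624 for COX7A1 and -0.0459 and 0.00521 for COX6A1. They were -0.0568 and 0.00858 for NDUFV1, -0.0329 and 0.0497 for ATP5D, -0.0833 and 0.0625 for NDUFS7, -0.0448 and 0.0876 for NDUFS3 and -0.00205 and 0.0567 for NDUFV2. For COX17 they were -0.116 and 0.0957. Without library 1 of both groups, the values were 0.0159 for ATP5B, 0.0457 for COX6A2, 0.0519 for COX7A1, -0.0269 for NDUFS3 and -0.00219 for NDUFV2. Without library 2 of both groups, the values were 0.0459 for COX5A, 0.0117 for ATP5B, -0.263 for ATP5H, 0.0316 for NDUFV1 and 0.102 for COX17. Without library 3 of both groups, the values were -0.0467 for SDHB, -0.00817 for UQCR10, -0.0174 for UQCRFS1, -0.0285 for ATP5A1, -0.0489 for ATP5D and -0.113 for NDUFS7. The cause was not tested. A filter at a mean of 5 FPKM left 70 members. A promoter motif search and a protein comparison were planned and not run. Depth is unknown, so no counting error could be given for low genes.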

Other observations

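The naming rule missed 8 rows that carry no symbol in the deposited table and whose identifiers the reference gene table pairs with respiratory chain symbols. These were COX8A, NDUFA2, NDUFA6, NDUFA9, SDHAF2, SDHD, UQCR11 and UQCRC2. NDUFA2, an accessory subunit of complex I, was at 94.1, 97.6 and 92.7 FPKM in the control libraries and 85.5, 85.7 and 89.3 FPKM in the exosome libraries, without overlap. Its log2 difference was -0.12 ± 0.046 (SE), with a limma adjusted p of 0.342. SDHD, the second membrane anchor of complex II, was at 186.6, 187.4 and 186.3 FPKM against 179.0, 169.9 and 181.1 FPKM, also without overlap and with a limma adjusted p of 0.486. The groups overlapped in the other 6, and 0 of the 8 passed by limma (1, NDUFA2, at an unadjusted p under 0.05). In either direction 18.7% of all genes did not overlap and 12.6% had an unadjusted p under 0.05 by limma. COX8A was at 420.1 ± 10.2 FPKM (SD, n = 3) in the controls, UQCR11 at 243.1 ± 0.904 and NDUFA9 at 93.7 ± 1.61, levels like those of the named subunits. NDUFA6 was at 1.79 ± 0.449 FPKM, another subunit row far below the rest of its complex.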
